A study of Mus musculus with 98 samples.

Results

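The genes described here make, store and export cholesterol. They are 32 named genes, taken from a list and found by symbol in all 6 count tables of an RNA-seq series on the acetyl-CoA synthetase Acss2 in mouse hippocampus. The tables hold 25239 gene symbols for the neurons given a virus and 55367 for the other samples. The list has 18 synthesis genes (Acat2, Hmgcs1, Mvk, Pmvk, Mvd, Idi1, Fdps, Fdft1, Sqle, Lss, Cyp51, Tm7sf2, Msmo1, Nsdhl, Hsd17b7, Ebp, Sc5d and Dhcr7) and 5 genes of SREBP control (Srebf2, Scap, Insig1, Insig2 and Stard4). It also has 5 genes of the LXR and efflux arm (Nr1h2, Nr1h3, Abca1, Abcg1 and Mylip) and 4 of storage, turnover and lysosomal export (Soat1, Cyp46a1, Npc1 and Npc2). Uptake is held in the list only through Mylip, a ligase that marks lipoprotein receptors for degradation, and through the lysosomal exporters.

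The series asked how a virus that raises Acss2 (PhP.eB.upACSS2) alters hippocampal gene expression, set against the PhP.eB vector without it. The labels do not name the promoter that drives the transgene. Primary embryonic hippocampal neurons of CD1 mice were given either virus at day 5 in vitro (DIV), then hAD-tau or PBS from 7 DIV. Unstimulated cultures were taken at 9 and at 21 DIV, and stimulated cultures at 21 DIV by a stimulus the labels do not describe. Each of those 12 groups has 3 libraries. A further culture at 21 DIV received no virus, and of its 7 libraries 4 were given hAD-tau and 3 PBS. Male C57BL6 mice aged 22 to 23 months (12 a virus, whole hippocampus) were sampled after remote context recall. Male C57BL6 mice aged 10 months (6 with upACSS2 and 5 with vector, dorsal hippocampus) were sampled after acquisition of fear conditioning. Male PS19 mice, which carry a mutant human tau transgene and were injected at an age of 2.5 months, were taken 1 month after the injection (aged 3.5 months) or 6 months after it (aged 8.5 to 9 months), 5 a virus and time, sampled after contextual recall. All PS19 groups carry the transgene, so none of them shows its own effect.

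Cells make cholesterol from acetyl-CoA in the endoplasmic reticulum. When sterols run low there, the escort protein Scap carries the transcription factor SREBP2, the product of Srebf2, to the Golgi, where it is cut free and switches on the synthesis genes; the Insig proteins hold this complex back when sterols are plentiful. When oxysterols build up, the nuclear receptors LXR alpha and LXR beta, the products of Nr1h3 and Nr1h2, switch on the exporters Abca1 and Abcg1 and the ligase Mylip. The brain makes its own cholesterol, mostly in glia in the adult, and Cyp46a1 turns neuronal cholesterol into an oxysterol that leaves the brain. Acss2 makes acetyl-CoA from acetate and is itself known as an SREBP target, and gene counts cannot tell its own transcript from the viral one.

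Promoters are shown first because SREBP2 acts at synthesis gene promoters with the factor NF-Y, which binds the CCAAT box. RefSeq windows of build GRCm38.p6, of 300 bases each, were matched by symbol for 26 of the 32 genes. A match to the 9-base sterol element TCACNCCAC on either strand lay in 1.24% of all 32851 windows, or in those of 1.44% of all 27025 genes, and among the matched members only in Hmgcs1. The CCAAT box lay in 37.4% of all windows, or in those of 41.1% of genes. It lay in windows of 14 of 15 matched synthesis genes, 3 of 4 of SREBP control, 3 of 3 of storage and lysosome and 1 of 4 of the LXR arm. The direct repeat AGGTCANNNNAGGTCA that LXR binds lay in 0.0152% of windows and in no member's; no match says only that these letters are not in this window. The 3 promoters printed here stand for the synthesis enzyme with the sterol element, another synthesis enzyme and an exporter. The second followed Acss2 between PS19 upACSS2 mice without being called, and the part of its motifs in that was not tested. Each run is the 250 bases before the start, on the gene's strand. Capitals mark the sterol element and CCAAT, which reads ATTGG on the other strand.
Hmgcs1, chr13:119690101-119690350, plus strand: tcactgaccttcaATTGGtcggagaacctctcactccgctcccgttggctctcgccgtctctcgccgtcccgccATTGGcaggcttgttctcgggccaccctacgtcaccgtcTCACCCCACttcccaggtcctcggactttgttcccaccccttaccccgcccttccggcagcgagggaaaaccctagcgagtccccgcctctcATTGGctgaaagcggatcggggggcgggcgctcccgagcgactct
Nsdhl, chrX:72918271-72918520, plus strand: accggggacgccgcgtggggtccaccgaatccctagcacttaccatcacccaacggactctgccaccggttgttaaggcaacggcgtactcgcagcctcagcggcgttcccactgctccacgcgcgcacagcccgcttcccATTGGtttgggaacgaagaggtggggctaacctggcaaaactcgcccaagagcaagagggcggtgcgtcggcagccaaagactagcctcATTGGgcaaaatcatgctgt
Abca1, chr4:53159896-53160145, minus strand: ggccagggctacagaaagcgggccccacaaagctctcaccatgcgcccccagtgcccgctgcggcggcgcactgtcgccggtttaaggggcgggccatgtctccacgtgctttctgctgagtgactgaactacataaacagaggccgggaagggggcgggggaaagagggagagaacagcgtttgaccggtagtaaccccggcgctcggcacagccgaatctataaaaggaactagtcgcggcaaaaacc

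Hmgcs1, which encodes HMG-CoA synthase, held 1 sterol element and 3 CCAAT boxes in the printed run. Nsdhl, a sterol dehydrogenase, held 2 CCAAT boxes, and Abca1 held none of the searched motifs.

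Library totals ran from 5075099 to 39985460 counts. Levels are given as CPM (counts scaled to library size), which take no account of gene length, so genes are not compared with each other. A gene was called changed when edgeR's quasi-likelihood test gave an adjusted p (Benjamini-Hochberg over all genes tested) under 0.05. The labels do not say that libraries of a neuron group came from separate cultures, so those p-values measure the spread between libraries, which may be technical. In bulk RNA, fewer cells of a type and less RNA per cell cannot be told apart. Fdps lay between 34.5 and 373 CPM in the neuron libraries given a virus and between 0 and 3.52 CPM in all others, so its counts in the tables with 55367 symbols are uncertain. The treatment labels of the vector plus hAD-tau neurons, the upACSS2 plus PBS neurons, the PS19 upACSS2 mice at 1 month and 1 PS19 vector mouse at 1 month differ from their titles, and groups follow the titles.

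Acss2 itself was measured first, as the check of the virus. In the neurons at 9 DIV with PBS it was at 51.02, 40.95 and 45.6 CPM with vector and at 1488, 1713 and 1957 CPM with upACSS2. Its log2 fold change was 5.21 there, 5.38 with hAD-tau, 5.86 and 6.21 at 21 DIV with PBS and hAD-tau, and 5.69 and 6.48 in the stimulated cultures, and all 6 were called. No neuron library with upACSS2 came near the vector range. In C57BL6 mice the difference was small. At 10 months Acss2 was at 42.3, 48.8, 47.4, 42.6 and 43.00 CPM with vector and ran from 49.9 to 59.3 CPM with a median of 57.5 with upACSS2 (log2 fold change 0.31, SE 0.073, adjusted p = 0.518). These groups did not overlap, as in 0.814% of all genes, but the difference was not called. In aged mice it ran from 39.96 to 53.7 CPM with a median of 48.1 with vector and from 46.7 to 61.5 CPM with a median of 54.9 with upACSS2 (log2 fold change 0.20, SE 0.048, adjusted p = 0.832), and the groups overlapped.

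In PS19 mice 1 month after injection, Acss2 was at 66.3, 51.5, 52.8, 51.7 and 53.1 CPM with vector and at 146, 1190.1, 318, 60.1 and 1465 CPM with upACSS2 (log2 fold change 3.53, SE 0.64, adjusted p = 0.371). At 6 months it was at 46.5, 55.97, 43.1, 44.9 and 50.4 CPM with vector and at 237, 101, 44.9, 55.4 and 111 CPM with upACSS2 (log2 fold change 1.19, SE 0.59, adjusted p = 0.373). Neither difference was called; that at 1 month was called in 4 of 15 alternatives (without mouse 1 or mouse 4 with upACSS2, without the filter on low counts, and by DESeq2 at an adjusted p of 0.000395). Mouse 4 of the upACSS2 group at 1 month and mice 3 and 4 at 6 months lay within the range of their vector groups, while the highest upACSS2 mouse at 1 month stood at 1465 CPM. A comparison of the PS19 virus groups therefore mixes mice with and without a raised Acss2 count, and the relation to Acss2 mouse by mouse is given further on.

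**Figure D1:**
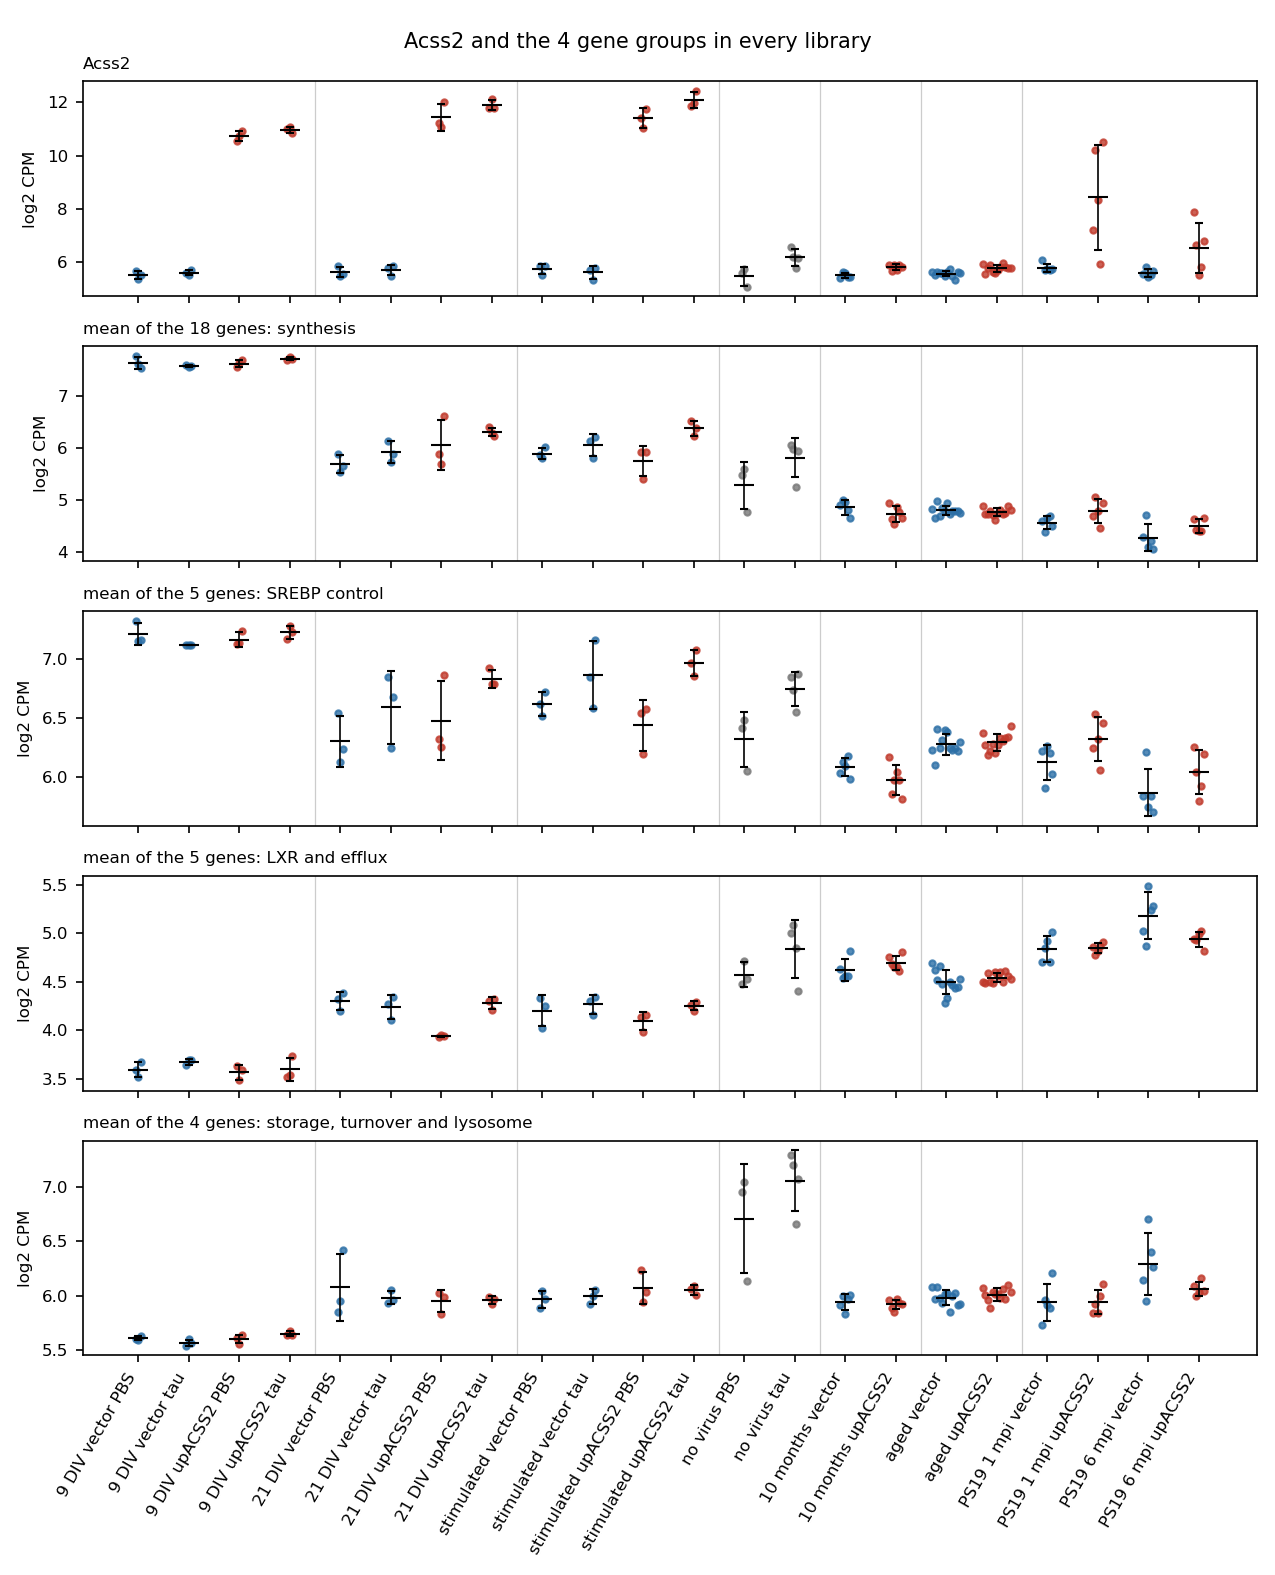
Acss2 and the mean of each gene group in every library, as log2 CPM on the vertical axes, with groups on the horizontal axis; points are libraries (blue vector, red upACSS2, grey no virus), bars the mean and SD. Acss2 is high in all upACSS2 neurons and uneven in PS19 mice, and the mean of the 18 synthesis genes is higher at 9 DIV than at 21 DIV in all 4 kinds of culture.

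Most of these genes differed with age in culture. In vector neurons with PBS, 29 of the 32 genes changed between 9 and 21 DIV, where 57.7% of all 14863 tested genes were called. The synthesis arm moved 1 way: 17 of its 18 genes were lower at 21 DIV, with a median log2 fold change over the arm of -2.06, against 0.054 over all genes. The LXR arm moved mostly the other way, with 4 of 5 genes higher and Mylip lower. Of the storage arm, Soat1, Cyp46a1 and Npc1 were higher.

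Among the synthesis genes, Mvd, the decarboxylase that ends the mevalonate steps, was at 273, 249.6 and 206 CPM at 9 DIV and at 30.5, 23.1 and 22.7 CPM at 21 DIV (log2 fold change -3.26, SE 0.24, adjusted p = 1.06e-09). Mvk, mevalonate kinase, was at 123, 109 and 97.9 CPM and then at 22.96, 20.4 and 22.7 CPM (log2 fold change -2.32, SE 0.13, adjusted p = 1.75e-11). Fdps, which makes farnesyl diphosphate, fell by 2.77 on the log2 scale, and Hsd17b7, a sterone reductase, fell by 2.12. The groups of Mvd and Mvk lay far apart. Hmgcs1 stood at 3828, 3724 and 3562 CPM at 9 DIV against 741, 558 and 628 CPM at 21 DIV (log2 fold change -2.53, SE 0.24, adjusted p = 2.4e-08). The exception was Ebp, a sterol isomerase, at 21.4, 19.96 and 19.8 CPM and then 17.96, 21.05 and 14.5 CPM, whose groups overlapped (log2 fold change -0.20, SE 0.13, adjusted p = 0.2).

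In SREBP control, Srebf2 was at 434, 414 and 421 CPM at 9 DIV and at 217, 149 and 169.8 CPM at 21 DIV (log2 fold change -1.25, SE 0.14, adjusted p = 3.6e-07). Stard4, a sterol transfer protein, had 288, 222 and 203 CPM and later 53.4, 31.6 and 36.3 CPM (log2 fold change -2.56, SE 0.33, adjusted p = 1.56e-06). The pair of Insig genes went apart. Insig1 fell by 1.57 on the log2 scale, whereas Insig2 was at 34.7, 29.7 and 35.5 CPM and then at 61.8, 59.7 and 52.7 CPM (log2 fold change 0.80, SE 0.11, adjusted p = 3.44e-06). Scap was not called (log2 fold change 0.058, adjusted p = 0.484).

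Of the LXR arm, the exporter Abcg1 was at 18.03, 19.1 and 20.2 CPM at 9 DIV and at 45.6, 48.9 and 38.5 CPM at 21 DIV (log2 fold change 1.22, SE 0.12, adjusted p = 8.15e-08). Nr1h3, which encodes LXR alpha, was barely counted, at 0.552, 0.483 and 0.97 CPM and then 2.65, 1.65 and 2.51 CPM (log2 fold change 1.79, SE 0.32, adjusted p = 7.79e-05), and Nr1h2 rose by 0.52 on the log2 scale. Abca1 was at 79.7, 71.9 and 81.4 CPM and then at 87.3, 90.6 and 211 CPM (log2 fold change 0.74, SE 0.23, adjusted p = 0.00956). The third library at 21 DIV held the highest Abca1 value by far, and the other 2 lay just above the 9 DIV range. Without that library the log2 fold change of Abca1 was 0.18 (adjusted p = 0.304), and it was not called when only the groups compared were fitted (adjusted p = 0.107). Mylip was called in 8 of 12 alternatives. The same library had 49.9 CPM of Soat1, which stores cholesterol as esters, against 24.3 and 25.8 CPM in the others.

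In upACSS2 neurons with PBS, 26 of the 32 genes changed between the same days, where 54.3% of all genes were called. Again 17 of 18 synthesis genes were lower, with a median log2 fold change of -1.56, and Srebf2, Insig1 and Stard4 were lower with Insig2 higher. Hmgcs1 was at 3491, 3727 and 3654 CPM at 9 DIV and at 851, 679 and 1630.3 CPM at 21 DIV (log2 fold change -1.78, SE 0.23, adjusted p = 1.91e-06). The third library at 21 DIV was the highest for Hmgcs1, and it also held the most Acss2. In the LXR arm only Abcg1 (log2 fold change 1.05) and Nr1h2 (0.20) were called; Nr1h2 was called in only 4 of 12 alternatives, with an adjusted p of up to 0.105. Nr1h3 was not called (0.26, adjusted p = 0.55), nor Abca1 (0.18, adjusted p = 0.539). The difference of the day effect between the viruses was not tested.

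**Figure D2:**
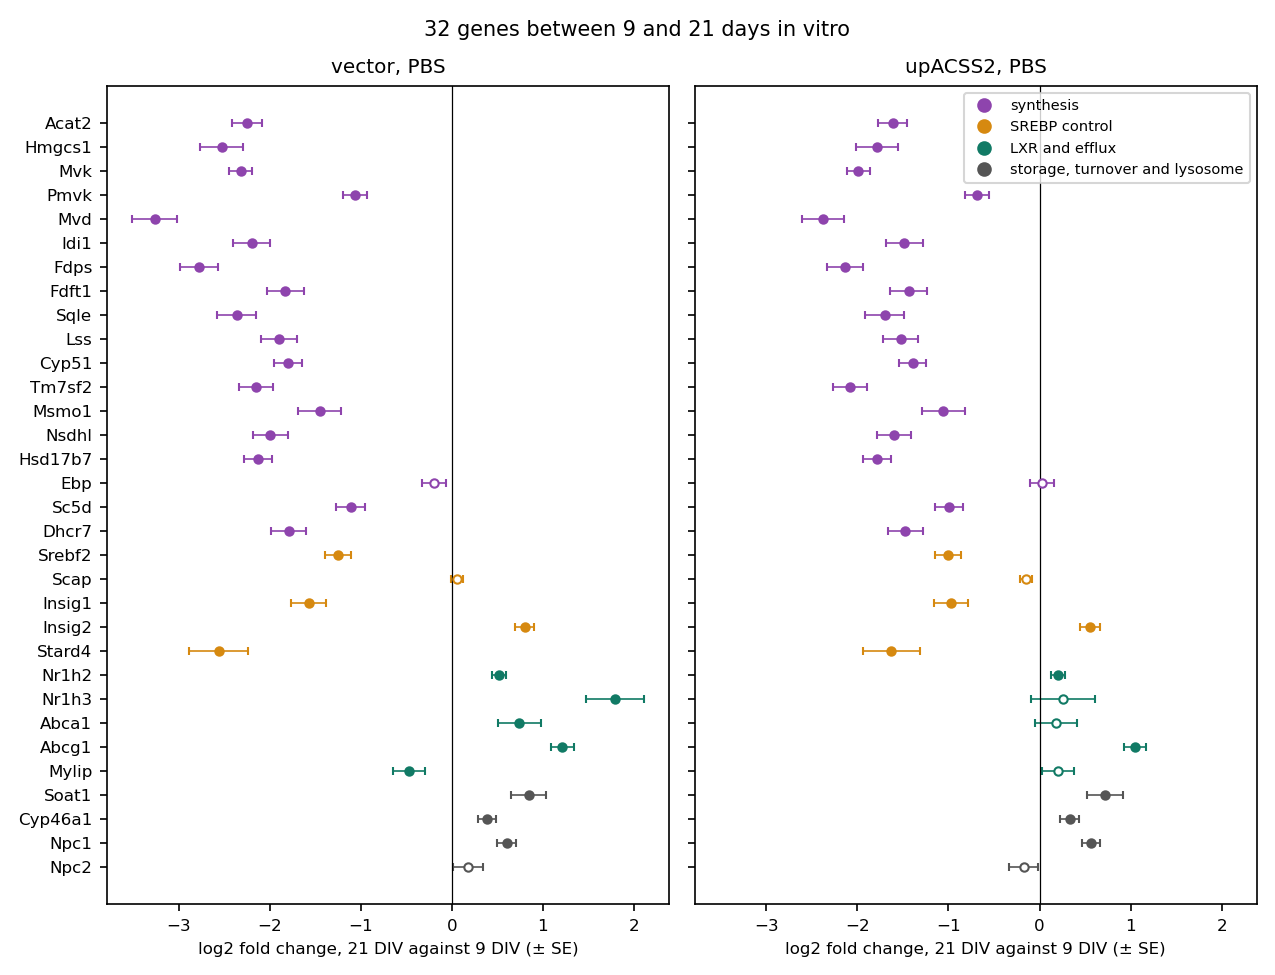
Log2 fold change of each of the 32 genes between 9 and 21 DIV on the horizontal axis, with vector (left) and upACSS2 (right), in PBS cultures; bars are the SE, filled points passed an adjusted p of 0.05 and colours mark the 4 arms. The synthesis genes except Ebp lie left of 0 in both panels.

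Glial markers moved with culture age. In vector neurons 7 of 8 astrocyte markers were higher at 21 DIV (median log2 fold change 1.83), with summed levels of 2361 to 2628 CPM at 9 DIV and 4724 to 20544 CPM at 21 DIV. Of 8 oligodendrocyte and myelin markers 7 were higher and 1 lower, and both precursor markers were higher. Of 6 neuron markers 1 was higher and 2 lower. No marker of these 4 lists was at 0 at either day, and their part in the changes was not tested. The ribosomal RNA precursor was also higher at 21 DIV in vector neurons with PBS (log2 fold change 3.34), but its libraries were uneven. It ran from 2825.12 to 4929.28 CPM at 9 DIV. At 21 DIV it was at 4998.63, 8408.18 and 106699 CPM, in order of level. The lowest of these lay just above the 9 DIV range, and 1 library stood far above all others.

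Of 14 other sterol genes tested from a separate list, 7 were lower and 3 higher in vector neurons at 21 DIV. The lowest p-values were those of Acly, which makes cytosolic acetyl-CoA from citrate (log2 fold change -1.98), and Mbtps2, a protease that frees SREBP (-0.95). With upACSS2, 5 were lower and 3 higher, led by Mbtps2 (-1.13) and Acly (-1.71).

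At 9 DIV the virus and hAD-tau were associated with small shifts in few members. Between upACSS2 and vector in PBS cultures 3 of the 32 genes were called, where 10.2% of all 14022 genes were. Srebf2 was at 434, 414 and 421 CPM with vector and at 461, 482 and 476 CPM with upACSS2 (log2 fold change 0.15, SE 0.034, adjusted p = 0.0075). Nsdhl was at 229.8, 204 and 212 CPM and 231, 258 and 245 CPM (log2 fold change 0.17, SE 0.051, adjusted p = 0.0325). Pmvk, phosphomevalonate kinase, was lower, at 103, 95.5 and 87.6 CPM with vector and 82.2, 80.1 and 82.7 CPM with upACSS2 (log2 fold change -0.24, SE 0.062, adjusted p = 0.0182). None of these 3 genes overlapped between groups, as 30.8% of all genes did not, and the share called was near that of all genes. Without the second upACSS2 library none was called, without the third 5 were, and without the third vector library 7 were. For these fits the shares of all genes called are not given here. In the same comparison 4 of 6 neuron markers were higher and 1 lower, 2 of 4 myelin markers tested and both oligodendrocyte precursor markers were lower, and their part was not tested.

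With hAD-tau present, none of the 32 genes was called between upACSS2 and vector by edgeR's quasi-likelihood test, where 0.692% of all genes were. Among 1761 genes with an unadjusted p under 0.05 were 14 members, and DESeq2 called 2 among 113 genes. All 18 synthesis genes had a positive log2 fold change (median 0.14), against 50.1% of all genes. In 10 of the 18 every upACSS2 library lay above every vector library, a pattern held by 9.21% of all genes. The smallest p-values were those of Tm7sf2, a sterol reductase, of Mvk and of Fdps. Tm7sf2 was at 115, 105 and 115 CPM with vector and 123, 129 and 128 CPM with upACSS2 (adjusted p = 0.0738). Mvk was at 116, 106 and 109.8 CPM and 128, 127 and 137 CPM (adjusted p = 0.0769).

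hAD-tau against PBS called 3 genes in vector neurons, where 4.28% of all genes were called. Abcg1 rose from 18.03, 19.1 and 20.2 CPM to 24.5, 25.7 and 24.7 CPM (log2 fold change 0.39, SE 0.078, adjusted p = 0.00826). Stard4 was at 288, 222 and 203 CPM with PBS and 191, 186 and 187 CPM with hAD-tau (log2 fold change -0.35, SE 0.10, adjusted p = 0.0419), and Msmo1, a methylsterol oxidase, fell by 0.20 on the log2 scale (adjusted p = 0.0437). The first PBS library held the highest Stard4 and Msmo1 values. Without it, or without the second hAD-tau library, none of the 3 was called, and 1 was without the first hAD-tau library. Without the third PBS library 9 members were called, and without the third hAD-tau library 7 were. For these fits, too, the shares of all genes called are not given here. Of 13 other sterol genes 1 was called, Lbr, a sterol reductase of the inner nuclear membrane (log2 fold change -0.38, adjusted p = 0.0178). Of the markers, 2 of 6 for neurons and 1 of 8 for astrocytes were higher and 1 of 2 precursor markers was lower, and their part was not tested. In upACSS2 neurons only Tm7sf2 was called, where 0.349% of all genes were, at 110.2, 106 and 103 CPM with PBS and 123, 129 and 128 CPM with hAD-tau (log2 fold change 0.25, SE 0.046, adjusted p = 0.0208). That call held only without the first hAD-tau library among the 6 fits that each left out 1 library. In the same comparison 2 of 8 astrocyte markers were higher, and their part was not tested.

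The test of whether the hAD-tau effect differed between viruses called Pmvk alone, where 0.663% of all genes were called (difference of log2 fold changes 0.40, SE 0.088, adjusted p = 0.0436). Pmvk was at 87.03, 77.3 and 92.6 CPM in vector and 102, 92.5 and 94.2 CPM in upACSS2 neurons with hAD-tau, so its order between viruses was turned from that in PBS. Stard4 (difference 0.51, adjusted p = 0.063) and Abcg1 (-0.38, adjusted p = 0.0808) did not pass. Pmvk was not called without 9 of the 12 libraries in turn, and none of the calls between groups at 9 DIV held when the 9 and 21 DIV libraries shared 1 estimate of the spread.

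At 21 DIV no member passed the test in any comparison of virus or hAD-tau. Fitted with the 9 DIV libraries, 7 members among 1576 called genes passed between viruses with PBS and 4 among 528 with hAD-tau. In PBS cultures none of the 32 genes was called between viruses by edgeR's quasi-likelihood test, where 0.0137% of all 14639 genes were. An unadjusted p under 0.05 was held by 13 members among 2431 genes, and DESeq2 called 2 among 360. All 18 synthesis genes had a positive log2 fold change (median 0.41), against 49.4% of all genes. The mean log2 CPM of the arm was 5.88, 5.54 and 5.65 with vector and 5.88, 5.70 and 6.61 with upACSS2, so the third upACSS2 library stood above all others and the other 2 overlapped with vector. The smallest p-values lay in the LXR arm. Nr1h2 was at 43.7, 40.2 and 38.4 CPM with vector and at 30.4, 31.5 and 32.2 CPM with upACSS2 (log2 fold change -0.39, adjusted p = 0.146). Nr1h3 was at 2.65, 1.65 and 2.51 CPM and 0.901, 0.908 and 0.7 CPM (-1.44, adjusted p = 0.143), and neither receptor's groups overlapped, as in 17.4% of all genes. Acat2, a thiolase at the start of the pathway, was at 52.5, 50.8 and 37.9 CPM and 63.9, 58.7 and 103 CPM (0.67, adjusted p = 0.19). All 8 astrocyte markers had a negative log2 fold change (median -0.76), none called, and their part was not tested.

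With hAD-tau at 21 DIV no member was called between viruses, where 0.0273% of all genes were. Of the members 9, among 1564 genes, had an unadjusted p under 0.05, and DESeq2 called 1 among 131. Of the synthesis genes 16 of 18 had a positive log2 fold change (median 0.43), and in 11 every upACSS2 library lay above every vector library, as in 9.48% of all genes. Sc5d, a sterol desaturase, was at 54.1, 42.5 and 55.6 CPM with vector and 77.6, 72.6 and 78.7 CPM with upACSS2 (log2 fold change 0.60, adjusted p = 0.335). Nr1h2 with upACSS2 lay below vector, at 34.2, 31.9 and 35.7 CPM against 47.4, 40.8 and 42.97 CPM (adjusted p = 0.263). Here all 8 astrocyte markers (median 0.40) and 7 of 8 myelin markers (median 0.69) had a positive log2 fold change, none called, and their part was not tested. The effect of hAD-tau called no member in vector neurons, where 0% of all genes were called. There 4 members among 1361 genes had an unadjusted p under 0.05, and DESeq2 called 0 members. In upACSS2 neurons none was called (0%), with 2 members among 931 genes at that p and 0 by DESeq2. The interaction called none (0%), with 1 member among 1215 genes at that p and 0 by DESeq2. In vector neurons Nr1h3 was at 1.23, 0.834 and 1.58 CPM with hAD-tau, and in upACSS2 neurons at 1.77, 1.38 and 2.62 CPM, so its group means changed order between the viruses at these very low levels (interaction adjusted p = 0.545).

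In the stimulated cultures the synthesis arm was highest where upACSS2 and hAD-tau were combined. Its mean log2 CPM was 5.92, 5.41 and 5.92 with upACSS2 and PBS and 6.52, 6.24 and 6.38 with upACSS2 and hAD-tau, without overlap. With vector it was 5.86, 5.81 and 6.01 with PBS and 6.13, 5.82 and 6.22 with hAD-tau, and these groups overlapped. In upACSS2 neurons hAD-tau gave a positive log2 fold change for all 18 synthesis genes (median 0.69), against 47.03% of all genes, and in 13 every hAD-tau library lay above every PBS library, as in 12.5% of all genes. Only Acat2 was called, where 0.208% of all 14939 genes were; it was at 54.4, 41.5 and 48.04 CPM with PBS and 80.01, 69.7 and 75.9 CPM with hAD-tau (log2 fold change 0.65, SE 0.11, adjusted p = 0.047). It was not called when any 1 of these 6 libraries was left out. DESeq2 called 15 members among 458 genes in this comparison.

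Others of the arm followed Acat2 without passing the test. Nsdhl was at 52.5, 38.6 and 57.2 CPM with upACSS2 and PBS and 108, 81.4 and 87.3 CPM with upACSS2 and hAD-tau (log2 fold change 0.90, adjusted p = 0.0686). Dhcr7, a reductase of the last steps, was at 48.5, 42.5 and 48.8 CPM and 78.9, 69.3 and 69.6 CPM (0.64, adjusted p = 0.0863). Acss2 lay at 2745, 2079 and 3485 CPM with PBS and 3709, 4033 and 5462 CPM with hAD-tau in the same libraries (adjusted p = 0.159), so with upACSS2 the group with more synthesis transcript also held more Acss2. With vector the group means went apart. The synthesis mean was 5.89 log2 CPM with PBS and 6.06 with hAD-tau, and Acss2 was at 5.74 and 5.61. The part of Acss2 was not tested.

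In vector neurons hAD-tau called Dhcr7 alone, where 3.02% of all genes were called, at 53.4, 57.9 and 57.5 CPM with PBS and 85.9, 67.6 and 112 CPM with hAD-tau (log2 fold change 0.65, SE 0.14, adjusted p = 0.0414). Libraries of the same number deviated together in this comparison. With the number as a block 8 members were called among 1069 genes, 7 members higher and 1 lower. Without the second hAD-tau library 7 were called, and Dhcr7 was not called without 4 of the 6 libraries in turn (PBS 1 and 3, hAD-tau 1 and 3). How many of all genes those fits called is not given here. Abcg1 was at 50.2, 49.7 and 53.4 CPM and 60.5, 60.6 and 80.2 CPM (adjusted p = 0.0721). In this comparison 2 of 8 astrocyte markers were lower (median log2 fold change of the list -0.77; summed levels 6478 to 10311 CPM with PBS and 3120.3 to 4856 CPM with hAD-tau) and the ribosomal RNA precursor was lower (log2 fold change -1.27), and their part was not tested.

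Between viruses, no member was called in stimulated PBS cultures by edgeR's quasi-likelihood test, where 0.208% of all genes were. There 5 of the 32 members and 2375 of 14939 genes had an unadjusted p under 0.05, and DESeq2 called 1 member among 420 genes. Here 3 of 18 synthesis genes had a positive log2 fold change (median -0.11), and the smallest p was that of Abca1, at 122, 108 and 116 CPM with vector and 185, 180.1 and 158 CPM with upACSS2 (0.60, adjusted p = 0.0734). With hAD-tau, no member was called, where 0.937% of all genes were. Of the members 11, among 3047 genes, had an unadjusted p under 0.05, and DESeq2 called 7 among 962. Libraries of the same number deviated together there. With the number as a block 5 members among 399 genes were called, 3 members higher and 2 lower. Without the second vector library 4 members were called, and the share of all genes called in that fit is not given here. Of the synthesis genes 16 of 18 had a positive log2 fold change (median 0.34), and in 8 every upACSS2 library lay above every vector library, as in 12.4% of all genes. All 8 astrocyte markers (median 0.83) and all 8 myelin markers (median 0.69) had a positive log2 fold change in this comparison, none called, and their part was not tested. Abcg1 was at 60.5, 60.6 and 80.2 CPM with vector and 45.6, 48.03 and 48.1 CPM with upACSS2 (-0.51, adjusted p = 0.0594). The interaction called no member, where 0% of all genes were. An unadjusted p under 0.05 was held by 6 members among 2135 genes, and DESeq2 called 1 among 131. Of the synthesis genes 17 of 18 had a positive difference, with a median of 0.42. Nsdhl stood at 0.69 (adjusted p = 0.268).

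In the culture without virus, hAD-tau gave a positive log2 fold change for all 18 synthesis genes (median 0.53), against 51.4% of all genes, but no member was called by edgeR's quasi-likelihood test, where 0% of all 16341 genes were. Of the members 8, among 2272 genes, had an unadjusted p under 0.05. DESeq2 called 1 member among 308 genes, and 0 members were called with the replicate number as a block. Stard4 was at 38.6, 40.04 and 24.7 CPM with PBS and 69.4, 61.01, 47.3 and 63.4 CPM with hAD-tau (log2 fold change 0.81, SE 0.20, adjusted p = 0.306). Srebf2 was at 251, 247 and 158 CPM and 343, 329, 275 and 399.8 CPM (adjusted p = 0.319). Dhcr7 was at 53.8, 52.9 and 42.8 CPM and 83.1, 77.3, 52.2 and 88.3 CPM (adjusted p = 0.319). Acss2 itself was at 47.7, 53.1 and 33.5 CPM and 94.6, 73.2, 54.4 and 71.6 CPM (0.72, adjusted p = 0.319), with no virus to supply it. The third PBS library was the lowest for Acss2, Stard4, Srebf2 and Dhcr7, and the astrocyte marker sums were 2287 to 10121 CPM with PBS and 7406 to 14233 CPM with hAD-tau, and all 8 markers had a positive log2 fold change, none called. Their part was not tested.

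In C57BL6 hippocampus no member passed the test between viruses. At 10 months no member of 31 tested was called by edgeR's quasi-likelihood test, where 0% of 13629 genes were. There 3 members and 1204 of the 13629 genes had an unadjusted p under 0.05, and DESeq2 called 0 members. Of 17 synthesis genes 2 had a positive log2 fold change (median -0.16). Abca1 was at 43.7, 33.3, 42.8, 40.9 and 53.03 CPM with vector and ran from 46.7 to 56.7 CPM with a median of 52.7 with upACSS2 (log2 fold change 0.29, SE 0.10, adjusted p = 0.518). Nsdhl was at 13.8, 20.6, 21.3, 17.4 and 15.04 CPM with vector and ran from 11.4 to 16.96 CPM with a median of 14.05 with upACSS2 (adjusted p = 0.548). Both genes overlapped between groups, as did Insig1 (log2 fold change -0.26, adjusted p = 0.562). In aged mice no member of 32 was called, where 0% of 15157 genes were. There 1 member and 846 of the 15157 genes had an unadjusted p under 0.05, and DESeq2 called 0 members. The members' log2 fold changes ran from -0.123 to 0.097. With mice 1 to 3 against 4 to 12 of each virus as a term, and in mice 4 to 12 alone, 0 were called. Cyp51, lanosterol demethylase, ran from 64.2 to 87.3 CPM with a median of 78.3 with vector and from 65.6 to 83.02 CPM with a median of 71.8 with upACSS2 (log2 fold change -0.10, SE 0.046, adjusted p = 0.879).

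In PS19 mice some members differed between the times after injection. In vector mice 7 of the 32 genes changed between 1 and 6 months, where 7.46% of all 15850 genes were called. The synthesis genes Hmgcs1, Mvk, Idi1 and Msmo1 were lower at 6 months, and the exporters Abca1 and Abcg1 and the lysosomal exporter Npc1 were higher. Over the arms, 4 of 18 synthesis genes had a positive log2 fold change (median -0.30), and 4 of 5 in the LXR arm (median 0.21). The mice of the later time were also older, so time after injection and age cannot be told apart.

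Mvk was at 18.8, 16.8, 16.7, 17.1 and 15.4 CPM at 1 month and at 9.92, 14.6, 11.8, 12.7 and 11.6 CPM at 6 months, without overlap (log2 fold change -0.48, SE 0.10, adjusted p = 0.0101). In this comparison 9.82% of all genes had no overlap. Hmgcs1 was at 354, 277, 367, 317 and 289 CPM and then at 195, 327, 156, 181 and 170.1 CPM (log2 fold change -0.64, SE 0.18, adjusted p = 0.041). At 6 months mouse 2 lay within the earlier range for Hmgcs1, and the other 4 lay below it. Msmo1 was at 90.2, 76.9, 80.6, 85.6 and 69.7 CPM and 48.4, 83.9, 38.8, 43.1 and 39.5 CPM (log2 fold change -0.67, SE 0.19, adjusted p = 0.0398), with mouse 2 again apart. Idi1, an isomerase, was at 5.87, 5.06, 7.95, 5.09 and 5.57 CPM and 4.47, 5.37, 2.00, 3.40 and 2.84 CPM (log2 fold change -0.71, SE 0.21, adjusted p = 0.0459).

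Npc1 was at 43.4, 54.1, 49.98, 44.5 and 59.6 CPM at 1 month and 79.1, 68.3, 120.1, 102 and 77.1 CPM at 6 months, without overlap (log2 fold change 0.83, SE 0.13, adjusted p = 0.00143). Abcg1 was at 68.96, 69.6, 76.6, 69.8 and 72.97 CPM and 93.6, 86.9, 130.1, 99.4 and 95.9 CPM, again without overlap (log2 fold change 0.50, SE 0.11, adjusted p = 0.0132). Of the 32 members 2 higher and 1 lower had no overlap, near the share of 9.82% of all genes. Abca1 was at 50.9, 89.6, 58.9, 43.7 and 100.3 CPM and 107, 85.8, 279, 186 and 143 CPM (log2 fold change 1.22, SE 0.26, adjusted p = 0.0098). Its groups overlapped, with mouse 2 the lowest and mouse 3 the highest at 6 months. Leaving out mouse 2 of the 6-month group gave 13 called members, and leaving out mouse 1, 2 or 3 at 1 month or mouse 3, 4 or 5 at 6 months gave 4. How many of all genes these fits called is not given here. Mvk, Abca1, Abcg1 and Npc1 were called in all 16 alternatives run for this comparison, Msmo1 and Idi1 in 7 and Hmgcs1 in 6. Of 7 microglia markers 1 was higher at 6 months (median log2 fold change 0.40; summed levels 372 to 1067 CPM at 1 month and 540.3 to 1229.5 CPM at 6 months), and of 8 myelin markers 1 and of 2 precursor markers 1 were higher. Their part was not tested.

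In the same comparison 2 of 14 other sterol genes were called, both higher: Lrp1, a lipoprotein receptor (log2 fold change 0.64, adjusted p = 0.0231), and Lpcat3, a phospholipid enzyme under LXR control (0.44, adjusted p = 0.0287). Beyond these, Lbr at 9 DIV and the culture ages, no other sterol gene was called in any comparison.

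**Figure D3:**
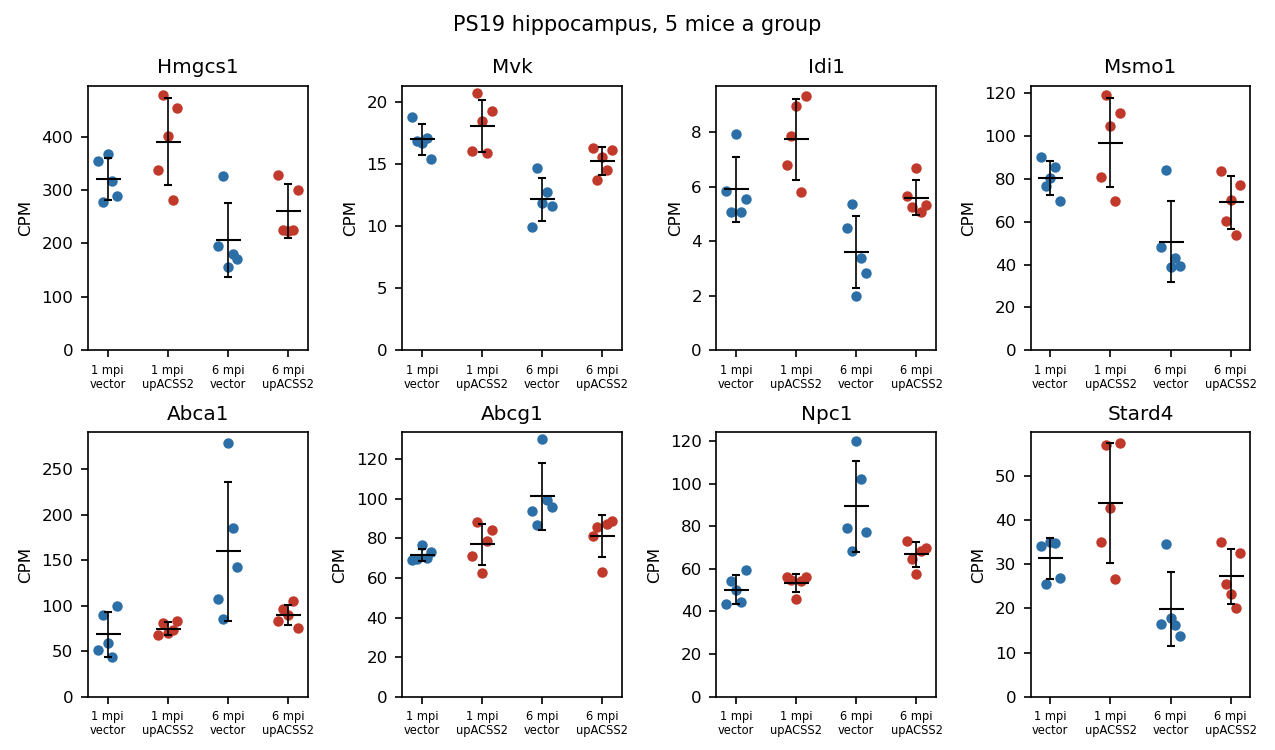
CPM of 8 genes in each PS19 mouse on the vertical axes, by virus and months after injection (mpi); points are mice (blue vector, red upACSS2), bars the mean and SD, 5 mice a group. The 6-month vector group is lowest by its mean for Hmgcs1, Mvk, Idi1, Msmo1 and Stard4 and highest for Abca1, Abcg1 and Npc1.

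In upACSS2 mice no member was called between the times by edgeR's quasi-likelihood test, where 0.0442% of all genes were. An unadjusted p under 0.05 was held by 14 members among 2166 genes, and DESeq2 called 0 members. Of the synthesis genes 1 of 18 had a positive log2 fold change (median -0.30). Npc1 was at 56.3, 54.9, 45.6, 54.2 and 55.95 CPM and 73.01, 64.8, 57.5, 68.5 and 69.97 CPM (0.33, adjusted p = 0.279). Abca1 was at 68.02, 80.9, 69.6, 73.3 and 82.95 CPM and 83.7, 96.1, 90.1, 105 and 75.7 CPM (0.26, adjusted p = 0.677). The test of the difference between the viruses called none, where 0% of all genes were, so the time effect was not shown to differ. There 4 members among 1956 genes had an unadjusted p under 0.05, and DESeq2 called 0 members. For Abca1 the difference was -0.96 (adjusted p = 0.366), for Abcg1 -0.42 (0.366) and for Npc1 -0.50 (0.361).

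Between viruses no member was called at 1 month or at 6 months (0% of all genes at both). An unadjusted p under 0.05 was held by 2 members among 463 genes at 1 month and 7 among 2237 at 6 months. DESeq2 called 0 members at both times. At 1 month 16 of 18 synthesis genes had a positive log2 fold change (median 0.26), against 48.5% of all genes, and at 6 months 17 of 18 (median 0.17, against 48.2%). Hsd17b7 was at 28.1, 19.9, 26.3, 22.8 and 24.3 CPM with vector and 30.2, 29.3, 29.3, 28.7 and 30.9 CPM with upACSS2 at 1 month, without overlap (log2 fold change 0.29, SE 0.093, adjusted p = 0.964). It was the only member without overlap at 1 month, a state held by 0.82% of all genes. At 6 months the smallest p-values were those of Npc1, Abca1 and Mvk. Npc1 had a log2 fold change of -0.42 (adjusted p = 0.192), Abca1 of -0.83 (0.195) and Mvk of 0.32 (0.201). All 6 choroid plexus markers had a positive log2 fold change at both times, none called, and at 6 months their summed levels were 82.9 to 451 CPM with vector and 128 to 6017 CPM with upACSS2; their part was not tested.

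The uneven Acss2 of the PS19 upACSS2 mice allowed each gene to be set against it, mouse by mouse, with the time points centred apart (10 mice). Of 15054 genes fitted, the 4 with the smallest p for a slope on log2 CPM of Acss2 were Stard4, Insig1, Fdft1 and Nsdhl, and Hmgcs1, Sqle and Mvd came within the first 10. None passed the adjusted threshold: edgeR's quasi-likelihood test called 0 members, where 0% of all genes were called, and 14 members among 367 genes had an unadjusted p under 0.05. All 17 synthesis genes fitted had a positive r, with a median of 0.799, against 0.022 over all genes, of which 5.61% reached an r of 0.5. The median r was 0.69 in SREBP control, -0.0824 in the LXR arm and 0.187 in storage and lysosome.

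Stard4 was at 34.99, 57.1, 42.9, 26.6 and 57.6 CPM in the 5 upACSS2 mice at 1 month, whose Acss2 was at 146, 1190.1, 318, 60.1 and 1465 CPM in the same order. At 6 months it was at 35.02, 25.6, 23.3, 20.1 and 32.6 CPM, with Acss2 at 237, 101, 44.9, 55.4 and 111 CPM. Its log2 level against that of Acss2 had a slope of 0.25, SE 0.0334, adjusted p = 0.152. Pearson's r was 0.953 (permutation p = 0.000347, adjusted 0.915), Spearman's rho 0.952 (permutation p = 0.0016, adjusted 1), and r without the 2 mice farthest in Acss2 0.914. The mice with the most Acss2 held the most Stard4 at each time. The permutations were exact, over all 14400 within-time orders.

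Insig1 gave a slope of 0.17, SE 0.0249, adjusted p = 0.162, an r of 0.967 (permutation p = 0.000278, adjusted 0.915), a rho of 0.976 (permutation p = 0.000347, adjusted 1) and an r of 0.953 without the 2 farthest mice. Fdft1, squalene synthase, gave an r of 0.918 (permutation p = 0.00153, adjusted 1), a rho of 0.855 (permutation p = 0.00903, adjusted 1) and 0.855 without them. Nsdhl was also close to Acss2 (r 0.925, permutation p = 0.000139, adjusted 0.915). Its rho was 0.927 (permutation p = 0.000556, adjusted 1), and its r was 0.947 without the 2 farthest in Acss2. Hmgcs1 was at 338, 478, 401, 282 and 454 CPM at 1 month and 328, 225, 224, 225 and 301 CPM at 6 months. Its r was 0.909 (permutation p = 0.000625, adjusted 1) and its rho 0.83 (permutation p = 0.00243, adjusted 1). Without the 2 farthest in Acss2 its r was 0.877. Against these, Abca1 had an r of 0.213, Abcg1 0.435, Nr1h2 -0.0824 and Scap 0.198. Each time point has 5 mice, too few for an r of its own. Acss2 correlated at 0.544 with the choroid plexus marker sum, at 0.158 with that of microglia and at 0.1003 with the total counts. It correlated at 0.429 with the precursor and at -0.282 with the astrocyte marker sum. The synthesis mean correlated at 0.567 with the choroid plexus, 0.341 with the precursor and -0.392 with the astrocyte marker sum. The part of these was not tested.

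**Figure D4:**
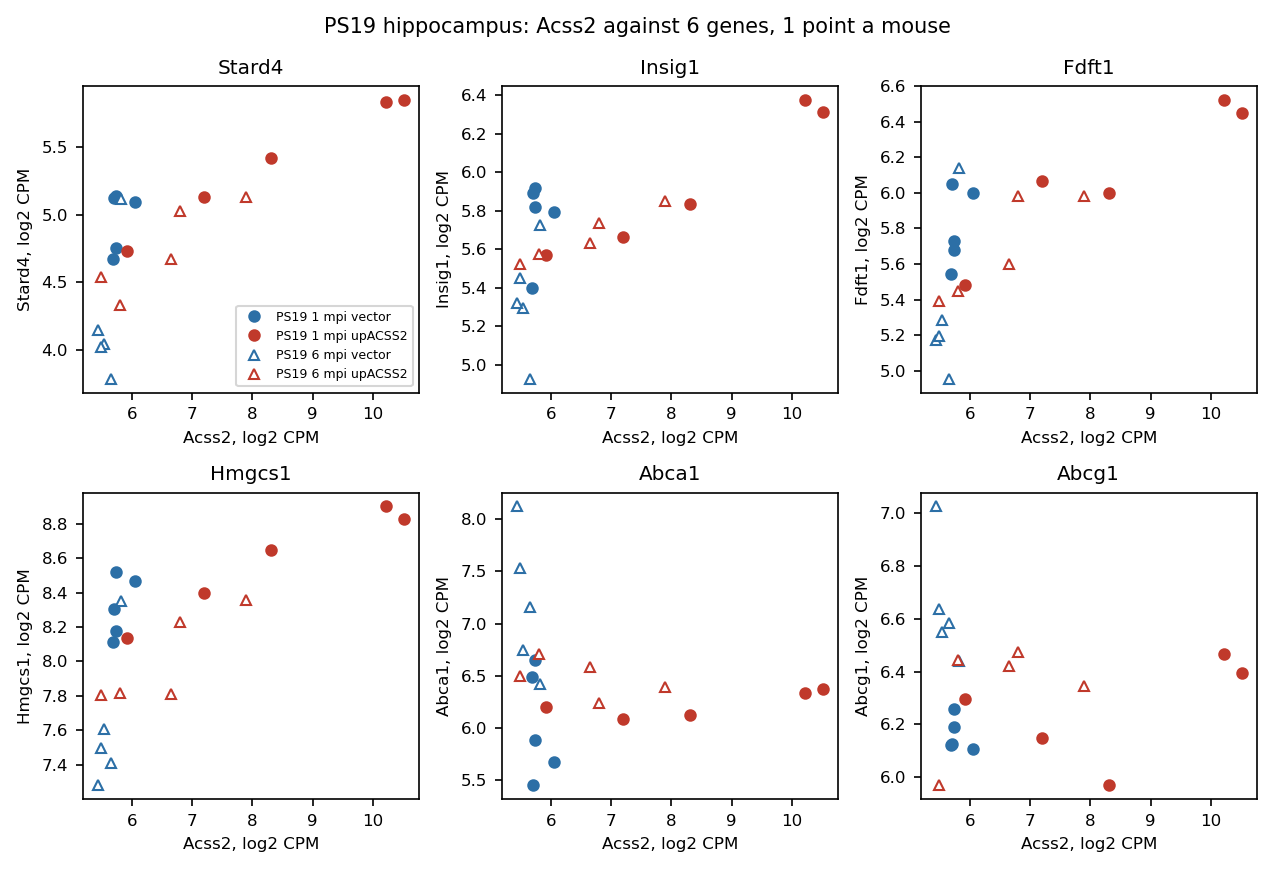
Log2 CPM of 6 genes (vertical axes) against log2 CPM of Acss2 (horizontal axes) in the PS19 mice, 1 point a mouse; circles are 1 month and triangles 6 months after injection, blue vector and red upACSS2. Among the red points Stard4, Insig1, Fdft1 and Hmgcs1 climb with Acss2, more closely than Abca1 and Abcg1, whose r was 0.213 and 0.435.

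In the 10 PS19 vector mice, where Acss2 spanned only 43.1 to 66.3 CPM, no member was called (0% of all genes). An unadjusted p under 0.05 was held by 11 members among 1480 genes. The median r was 0.591 for synthesis, 0.473 for SREBP control, -0.515 for the LXR arm and -0.569 for storage and lysosome. Without the 2 mice farthest in Acss2 (mouse 1 at 1 month and mouse 2 at 6 months) the synthesis median was -0.0753, so the relation rests on those mice. Sqle, squalene epoxidase, lost its relation in the same way (r 0.748, permutation p = 0.0169, adjusted 0.427; rho 0.636, permutation p = 0.0746, adjusted 0.409; r 0.18 without the 2 farthest in Acss2). Npc1 went the other way (r -0.731, permutation p = 0.0187, adjusted 0.435). Its rho was -0.818 (permutation p = 0.0164, adjusted 0.345), and its r was -0.691 without the 2 farthest in Acss2. In these mice Acss2 correlated at 0.551 with the neuron marker sum, at -0.592 with that of astrocytes and at -0.443 with that of microglia. The synthesis mean correlated with these sums at 0.401, -0.705 and -0.772, and their part was not tested.

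In aged mice no member was called with upACSS2 (12 mice) or with vector (12 mice), also with the term for mice 1 to 3. Of all genes 0% were called in both. An unadjusted p under 0.05 was held by 2 members among 406 genes with upACSS2 and by 2 among 734 with vector. The median r for synthesis was 0.435 with upACSS2 (0.284 without the 2 farthest mice) and 0.0584 with vector. Acat2 had the smallest p with upACSS2, and fell short of the adjusted threshold (r 0.662, permutation p = 0.0184, adjusted 0.999; rho 0.657, permutation p = 0.0237, adjusted 1; r 0.377 without the 2 farthest in Acss2). In the 6 upACSS2 mice at 10 months no member was called (0%) and the synthesis median was 0.00824. Of 349 genes with an unadjusted p under 0.05 there, 0 were members. The 5 vector mice at 10 months were too few.

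In the neurons each relation has 6 libraries with 36 within-group orders, so no permutation p can fall below 0.0278. At 9 DIV with upACSS2 Stard4 was called alone, where 0.0431% of all genes were: it was at 180.1, 197 and 245 CPM with PBS and 223, 253 and 222 CPM with hAD-tau, in the same order as Acss2 within each (slope 0.97, SE 0.158, adjusted p = 0.0109). Its correlation was high as well (r 0.907, permutation p = 0.0833, adjusted 1; rho 1, permutation p = 0.0278, adjusted 1; r 0.712 without the 2 farthest in Acss2). The slope was not called without 3 of the 6 libraries in turn. No member was called with vector at 9 DIV, with upACSS2 at 21 DIV or with upACSS2 in stimulated cultures (0% of all genes in each). In that order, 5 members among 760 genes, 20 among 982 and 2 among 940 had an unadjusted p under 0.05. The median r for synthesis was 0.622 and 0.476 at 9 DIV with upACSS2 and vector, 0.884 and 0.669 at 21 DIV, and 0.507 and 0.801 in stimulated cultures. Without the 2 libraries farthest in Acss2 these medians were 0.0119 and 0.136 at 9 DIV and 0.638 and 0.293 at 21 DIV. In stimulated cultures they were 0.72 and 0.874. At 9 DIV both libraries left out were PBS libraries, so those medians came from the hAD-tau libraries alone. In every neuron set too few libraries were left to show what a relation rests on. This also holds for the r of single genes without those libraries.

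With vector at 21 DIV Stard4 was called, where 8.13% of all genes were (slope 2.72, adjusted p = 0.0488; r 0.904, permutation p = 0.0833, adjusted 0.334; rho 0.8286, permutation p = 0.111, adjusted 0.35; r -0.0937 without the 2 farthest in Acss2). Without the 2 libraries farthest in Acss2 its slope was -0.35 and was not called, in a fit with few libraries left. Without PBS library 2 or 3, 4 or 11 members were called, and without any other library 0. The shares of all genes called in those fits are not given here. With vector in stimulated cultures Fdft1, Msmo1, Nsdhl and Insig2 were called with positive slopes, where 3.19% of all genes were. Fdft1 had the smallest p (slope 1.68, SE 0.213, adjusted p = 0.0112; r 0.99, permutation p = 0.0278, adjusted 0.36; rho 1, permutation p = 0.0278, adjusted 0.703; r 0.998 without the 2 farthest in Acss2). It was at 98.6, 74.7 and 104 CPM with PBS and 129, 81.2 and 147 CPM with hAD-tau, where Acss2 was at 56.9, 46.03 and 57.9 and 52.3, 40.1 and 55.1 CPM. The second library was the lowest of both genes in both groups. Same-numbered libraries deviated together here, whereas the slope and the 36 orders treat all 6 as independent. Without that library of either group no member was called, and without PBS library 1 or 3, 2 or 1 were. Here, too, the shares of all genes called in those fits are not given. The neuron marker sum followed Acss2 as well, with an r of 0.994 there, 0.954 in the 21 DIV vector libraries and 0.753 in those with upACSS2. The precursor marker sum had an r of -0.987 with Acss2 in the stimulated vector libraries. That of microglia had -0.983 and that of myelin -0.939 in the 21 DIV vector libraries, and that of microglia 0.9505 in the 21 DIV upACSS2 libraries. In the 9 DIV vector libraries that of precursors had 0.928, that of astrocytes 0.811 and that of microglia -0.592. There the synthesis mean had an r of 0.899 with the total counts. The ribosomal RNA precursor had an r with Acss2 of -0.718 in the 21 DIV vector libraries and -0.710 in those with upACSS2. With the synthesis mean it had -0.712 and -0.662. In the 9 DIV vector libraries its r with Acss2 was 0.650. In the stimulated upACSS2 libraries the synthesis mean had an r of 0.920 with the astrocyte and 0.900 with the precursor marker sum. The part of these was not tested.

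In the 7 libraries without virus no member was called (0% of all genes), with a synthesis median r of 0.886. An unadjusted p under 0.05 was held by 24 members among 4275 of 16340 genes. The astrocyte marker sum had an r of 0.882 with Acss2 in those libraries, and that of myelin had 0.858. That of neurons had -0.770, and that of endothelial and meningeal cells -0.784. With the synthesis mean these sums had an r of 0.896, 0.927, -0.696 and -0.817, in the same order. Their part was not tested. Without the first hAD-tau library, 19 members were called, and the share of all genes called in that fit is not given here.

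**Figure D5:**
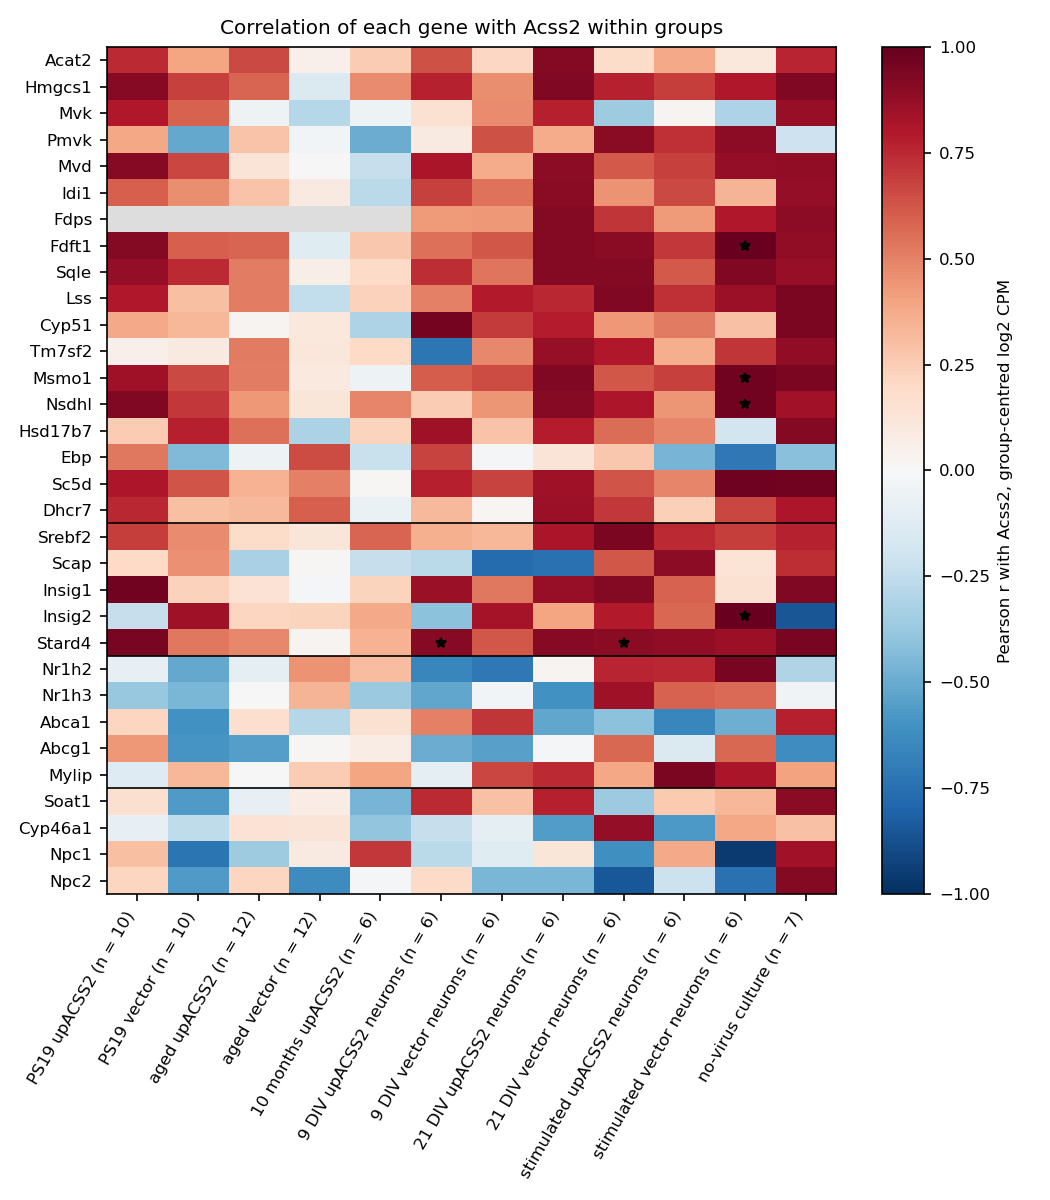
Pearson r of each gene with Acss2 within groups, as colour, for the genes (rows, by arm) in 12 sets of mice or libraries (columns, with n); stars mark slopes with an adjusted p under 0.05, grey genes not fitted. Synthesis genes and Stard4 are mostly red in PS19 upACSS2 mice and 21 DIV upACSS2 neurons. Synthesis genes are also mostly red in sets without upACSS2: the culture without virus (median r 0.886), stimulated vector neurons (0.801) and 21 DIV vector neurons (0.669). In aged vector and 10-month mice both signs occur.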

How the data were processed

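Total RNA was sequenced from hippocampal cultures and mouse hippocampus. The authors deposited gene counts, as whole numbers per gene symbol, in 6 tables; per the submitters' processing notes STAR, featureCounts, HTSeq and DESeq2 were used with build mm10, and the strand setting is not given in the sources used here. Library totals were 14603730 to 33960722 counts in the unstimulated neurons, 18804544 to 39985460 in the stimulated, 5683314 to 29890248 in the culture without virus, 11436140 to 28161314 in aged, 5075099 to 10839489 in 10-month and 6910945 to 33259982 in PS19 mice. Rows of the culture without virus that name no gene held 6.13 to 8.74% of its counts and were left out.

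Groups follow the sample titles. The members and lists were chosen with earlier results of these data known. Each table was fitted with edgeR 4.0.16 (R 4.3.3; TMM scaling, quasi-likelihood test, filter on low counts by its default), 9 and 21 DIV apart for comparisons within a day and together between days. P-values were adjusted by Benjamini-Hochberg over all genes, with a threshold of 0.05. There were 25 comparisons and 12 relations to Acss2. In a relation, log2 CPM of Acss2 (prior count 2) entered the fit beside the group; r and rho were computed on values centred within groups, with permutations within groups, exact except in aged mice (100000), and adjusted over all genes. Per-library values were given for Acss2 and for members past the threshold (up to 4 by p an arm), otherwise for up to 3 with the smallest p, with others added for context.

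Alternatives were RLE scaling, no filter, DESeq2 1.42.0, other sample sets, the replicate number as a block, leaving out each library, and, chosen after the data were seen, limma 3.58.1 with voom weights. The fits were tested on simulated data. In 242 pairs of libraries of 1 group, counts differed by more than sampling noise (chi-square per gene at least 2.32). Numbers paired the samples, by deviations of every pair that correlated above 0.1, in stimulated upACSS2 against vector with hAD-tau (0.111 to 0.359), stimulated hAD-tau against PBS with vector (0.123 to 0.326) and the culture without virus (0.220 to 0.394). The biological coefficient of variation was 0.042 at 9 DIV, 0.189 at 21 DIV, 0.138 in stimulated neurons, 0.279 in the culture without virus, 0.149 in aged, 0.141 in 10-month and 0.193 in PS19 mice.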

Additional observations from a re-analysis of the deposited data

Results flagged for a closer look

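Each of 35 sets of 4 to 6 samples was checked for a sample apart from the rest, where chance gives about 5% of sets, and 3 sets held such a sample. In the culture without virus, the third hAD-tau library had a mean of 5.26 log2 CPM over the 18 synthesis genes, and the other hAD-tau libraries lay between 5.95 and 6.07. Among PS19 vector mice at 1 month, mouse 1 had 6.05 log2 CPM of Acss2, and the others lay between 5.69 and 5.74. Among PS19 vector mice at 6 months, mouse 2 had a mean of 6.21 log2 CPM over the 5 genes of SREBP control, and the others lay between 5.70 and 5.84. The last 2 mice are those on which the relation of synthesis genes to Acss2 in vector mice rests.

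The effect of hAD-tau on Pmvk at 9 DIV differed between upACSS2 and vector neurons (difference of log2 fold changes 0.40, SE 0.088; edgeR's quasi-likelihood test, adjusted p = 0.0436). The cause was not tested.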

How the results depend on the processing

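Of 440 recomputed counts of called members, 339 stayed within 1.5 times the main count and 101 did not; of 2174 values of single genes 1994 kept their call, 122 lost it, 50 gained it and 8 turned direction. The causes were not tested. RLE scaling changed no count by over 1.5 times. Between 9 and 21 DIV the counts were 27 to 30 with vector and 24 to 27 with upACSS2 over all alternatives run; voom weights per day, chosen after the data were seen, gave 29 and 25. Voom weights per library, likewise chosen later, gave 9 for time in PS19 vector mice.

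Without the filter on low counts, upACSS2 against vector at 9 DIV called 8 members with PBS and 9 with hAD-tau, hAD-tau against PBS 10 with vector and 5 with upACSS2, and the interaction 10. In that order, these fits called 1898, 368, 1153, 201 and 794 genes in all. In stimulated cultures the counts were then 1 and 1 for upACSS2 against vector with PBS and hAD-tau and 5 for hAD-tau with upACSS2. These fits called 51, 220 and 110 genes in all. Relations then gave 2, 2 and 2 at 9 DIV with upACSS2, 9 DIV with vector and 21 DIV with vector, and 9 in the culture without virus. These relations called 39, 57, 1288 and 454 genes in all. DESeq2 called 2 for the virus with hAD-tau at 9 DIV, 2 for hAD-tau with upACSS2 and 4 for the interaction, among 113, 79 and 331 genes. At 21 DIV it called 2 and 1 for the virus with PBS and hAD-tau, among 360 and 131 genes. In stimulated cultures it called 1 and 7 for the virus with PBS and hAD-tau, among 420 and 962 genes. There it called 4 and 15 for hAD-tau with vector and upACSS2 (1521 and 458 genes) and 1 for the interaction (131 genes). In the culture without virus it called 1 (308 genes). Fitting only the groups compared gave 4 and 4 at 9 DIV for the virus with hAD-tau and for hAD-tau with upACSS2, 0 and 7 in stimulated cultures for hAD-tau with vector and upACSS2, and 4 for time in PS19 vector mice. In the same order these fits called 54, 125, 0, 167 and 1316 genes in all. Fitting all 24 unstimulated libraries gave 0, 0, 0 and 0 for the 9 DIV comparisons that had calls, and 7 and 4 for the virus at 21 DIV with PBS and hAD-tau. In the same order 2, 1, 0, 0, 1576 and 528 genes were called in all. Without the 2 libraries farthest in Acss2, relations gave 6 members at 21 DIV and 9 in stimulated vector cultures. The same fits called 2209 of 14446 and 1516 of 14476 genes. Few libraries were left in them.

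With the replicate block, pairing by number gave 1 for hAD-tau with vector at 9 DIV, and in stimulated cultures 1 and 5 for the virus with PBS and hAD-tau, 8 and 16 for hAD-tau with vector and upACSS2, and 4 for the interaction. In the same order the block called 552, 280, 399, 1069, 487 and 166 genes in all. Deviations paired the samples only in the comparisons with 5 and 8, and in the culture without virus, at 0 in both fits. The block changed no other count by over 1.5 times. Every library correlated best with its own number in the stimulated comparisons with 5 and 8 and between 9 and 21 DIV; elsewhere this was so for some or none.

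Leaving out each library in turn gave 0 to 7 members for the virus at 9 DIV with PBS, 0 to 9 and 0 to 1 for hAD-tau with vector and upACSS2, and 0 to 6 for the interaction. In stimulated cultures it gave 0 to 4 for the virus with hAD-tau, and 0 to 7 and 0 to 0 for hAD-tau with vector and upACSS2. It gave 4 to 13 for time in PS19 vector mice. For relations it gave 0 to 1 at 9 DIV with upACSS2, 0 to 11 at 21 DIV and 0 to 4 in stimulated cultures with vector, and 0 to 19 in the culture without virus. The shares of all genes called in the fits that left out a library are not given here.

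Acss2 with hAD-tau against PBS in vector neurons, never called, ran from -0.0125 to 0.15 at 9 DIV over the fits that each left out 1 library (-0.0057 without hAD-tau library 3), from -0.0025 to 0.18 at 21 DIV and from -0.22 to 0.0092 in stimulated cultures. Without the 2 libraries farthest in Acss2, slopes turned to -1.92 for Npc1 in 10-month mice, -0.28 for Sc5d at 9 DIV with vector and -0.35 for Stard4 at 21 DIV with vector; Stard4 at 9 DIV with vector ran from -0.30 without PBS library 1 to 1.28 without PBS library 2. Depth limits Nr1h3, which stayed under 3 CPM in the neurons.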
